A study of Homo sapiens with 12 samples.

Results

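The mitochondrial ribosomal protein genes were taken as every gene symbol made of MRPL or MRPS, a number and at most a letter A, B or C, without pseudogenes or antisense genes. That gave 75 of the 19775 genes named on the arrays, 48 with an MRPL and 27 with an MRPS symbol, and each gene was read from 1 probe set, the brightest on average among those that name this gene alone. The current annotation lists 77 such symbols. MRPL53 and MRPS24 share their probe sets with other genes and were not used here, and MRPS36 was not analysed here. All 75 genes passed the filter on low values, a mean of at least 4.02 on the log2 scale, which 64.8% of the named genes passed. A probe set's level was never set against another's, because probes differ in brightness.

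The study sought targets of miR-21 in Jurkat, an established line of human T-cell leukaemia origin, transduced with a construct encoding miR-21 or with its cognate control vector. AGO2, the Argonaute protein that carries microRNAs on their targets, was immunopurified (AGO2 IP), control IgG was used in the same way (IgG IP), and unselected RNA was kept (Total RNA). The 6 groups were the AGO2 IP, the IgG IP and Total RNA, each with miR-21 and with the control vector, in replicates numbered 1 and 2, on 12 Affymetrix arrays. All groups share the cell line and a transduction, no group is untransduced, and a larger mass of RNA was labelled for Total RNA than for the IPs, so fraction and labelled mass cannot be told apart. Bulk RNA was measured, in which fewer cells with a transcript and less of it per cell cannot be told apart. The labels do not say that the replicates were separate cultures, so p-values measure the spread between these arrays, and the number of arrays limits the precision.

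The mitochondrial ribosome makes the few proteins that mitochondrial DNA encodes, all of them parts of the respiratory chain. Its RNAs come from mitochondrial DNA, whereas all of its proteins are encoded in the nucleus, translated on cytosolic ribosomes and imported. Many of its proteins have a bacterial counterpart, while others were added in the mitochondrial lineage. The letter in the symbol names the large (L) or the small (S) subunit as first assigned, and MRPS30 and MRPS18A were later placed in the large subunit.

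The microRNA that the construct encodes is shown because the study turns on it. The mature sequence is RefSeq's, from GRCh38.p14 at chr17:59841273-59841294 on the plus strand, with the seed (bases 2 to 8) in capitals.
hsa-miR-21-5p: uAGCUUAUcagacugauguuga

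For 6 genes, the 100 bases directly before the start that RefSeq's promoter table uses are shown because these genes led the difference between the AGO2 IP and Total RNA, 3 of them higher and 3 lower. They are RefSeq's promoters of GRCh38.p14: MRPL58 at chr17:75012570-75012669 (plus strand), MRPL20 at chr1:1407294-1407393 (minus), MRPL39 at chr21:25607482-25607581 (minus), MRPL41 at chr9:137551779-137551878 (plus), MRPS12 at chr19:38930844-38930943 (plus) and MRPL37 at chr1:54200067-54200166 (plus). Capitals mark matches, on either strand, to any of 4 motifs. The ETS motif searched was CCGGAAG. The GC box was searched for as GGGCGG. The other motifs were that of NRF1 and the box named for its letters CCAAT. For MRPL39 that start lies 378 bases inside the annotated gene, so its stretch is within the gene, and for the other 5 it is the gene's outer end. The opening letter of the MRPL41 stretch belongs to a match that begins before it.
MRPL58: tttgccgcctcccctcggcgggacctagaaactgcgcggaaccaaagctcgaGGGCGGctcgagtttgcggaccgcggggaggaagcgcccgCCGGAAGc
MRPL20: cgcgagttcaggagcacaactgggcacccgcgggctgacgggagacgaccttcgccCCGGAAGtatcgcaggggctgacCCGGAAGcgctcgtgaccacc
MRPL39: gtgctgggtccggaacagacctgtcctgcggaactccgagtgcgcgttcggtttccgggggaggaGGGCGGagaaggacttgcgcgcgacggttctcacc
MRPL41: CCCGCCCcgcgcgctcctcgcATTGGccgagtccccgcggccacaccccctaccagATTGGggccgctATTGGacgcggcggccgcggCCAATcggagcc
MRPS12: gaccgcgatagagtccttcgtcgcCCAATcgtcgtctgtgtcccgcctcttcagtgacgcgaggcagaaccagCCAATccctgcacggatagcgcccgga
MRPL37: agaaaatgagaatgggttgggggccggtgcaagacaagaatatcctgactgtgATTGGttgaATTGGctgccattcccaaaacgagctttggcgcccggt

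Of the 75 genes, 67 had a promoter in the RefSeq table, and motifs were counted in the 250 bases before the table's start, which was the outer end of the annotated gene for 59 of the 67. The ETS motif stood in 22 of these 67 promoters (32.8%), against 30.4% for cytosolic ribosomal protein genes, 15.5% for all tested genes and 8.82% for all promoters of the table. Among the genes called between the AGO2 IP and Total RNA below, it stood in 3 of the 5 higher and in 1 of the 9 lower ones that had a promoter. The NRF1 motif stood in 11.9% of the mitochondrial ribosomal promoters and in 10.4% of those of all tested genes. The GC box was found in 55.2% of them and in 66.3% of tested genes, and the CCAAT box in 28.4% of them and 34.9% of tested genes. These are matches of letters, not binding sites.

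The arrays of the replicates differed in overall level. Array medians lay between 3.55 and 3.67 in replicate 1 and between 4.38 and 4.48 in replicate 2, and the median over the 75 genes lay between 8.87 and 9.35 and between 9.73 and 10.10. Of 12 T-cell markers measured, all 12 had a mean at or above the filter, and 6 of 12 markers of other cell types did. MS4A1, CD14, LYZ, EPCAM, KRT19 and ALB were below it. CD79A, CSF1R, KRT8, KRT18, HBB and COL1A1 were at or above it. The summed log2 level of the 12 other-cell markers ran from 46.82 to 55.46 in the AGO2 IPs. It ran from 51.29 to 53.56 in the IgG IPs and from 45.89 to 55.90 in Total RNA. These ranges overlapped, but they pool both replicates, whose array medians differed, so the overlap does not compare the fractions. The 3′ minus 5′ difference of a control gene, a sign of RNA length, moved with the fraction. For GAPDH it was 0.35 and 1.95 in the miR-21 and control vector AGO2 IPs of replicate 1 and 0.44 and 0.46 in the IgG IPs, against 0.14 and 0.22 in Total RNA. In replicate 2 it was 1.02 and 1.05 in the AGO2 IPs and 1.60 and 1.14 in the IgG IPs, against 0.58 and 0.71 in Total RNA, so every IP lay above Total RNA of its replicate. For ACTB it was 1.97 and 4.0 in the AGO2 IPs of replicate 1 and 2.08 and 2.18 in the IgG IPs, against 1.35 and 1.38 in Total RNA. In replicate 2 ACTB gave 2.08 and 2.58 in the AGO2 IPs and 3.48 and 2.57 in the IgG IPs, against 3.18 and 3.53 in Total RNA, without that order. The part of these differences in the results of the IPs against Total RNA was not tested.

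The 4 IP arrays of replicate 2 stood apart by construct rather than by antibody. In replicate 2, MRPL58 read 11.66 in the miR-21 AGO2 IP and 11.56 in the miR-21 IgG IP, against 9.44 in the control vector AGO2 IP and 9.28 in the control vector IgG IP. In replicate 1 it read 11.80 in the miR-21 AGO2 IP and 11.77 in the control vector AGO2 IP, against 8.84 and 9.03 in the miR-21 and control vector IgG IPs. Across the 75 genes, the miR-21 minus control vector difference in the AGO2 IP and that in the IgG IP had a Pearson's r of 0.910 in replicate 2 and of 0.026 in replicate 1 (75 genes of the same 4 arrays each, no test). The AGO2 minus IgG difference of replicate 1 and the miR-21 minus control vector difference in the IgG IP of replicate 2, which share no array, had an r of 0.675 over the same genes and of 0.630 over all 12824 tested genes. The control vector AGO2 IP and the miR-21 IgG IP of replicate 2 are called the arrays in doubt below, because of these values, and results are given with and without them. They were chosen on values of these same genes, so whatever is given without them is conditioned on that choice and is a description, with no test. The origin of the pattern was not tested. Without these arrays, AGO2 minus IgG within replicate 2 rests on a miR-21 and a control vector array, so antibody and construct cannot be told apart there.

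Against Total RNA, a few mitochondrial ribosomal transcripts read higher in the AGO2 IP and a larger number lower. The 3′ minus 5′ difference of GAPDH was higher in these AGO2 IPs in both replicates. That of ACTB was higher in replicate 1 and lower in replicate 2, and the part of either was not tested. MRPL58, a peptidyl-tRNA hydrolase of the large subunit that frees stalled ribosomes, was higher, at 2.37 ± 0.62 log2 units, and MRPS12, the small-subunit protein at the decoding site, was lower, at −1.57 ± 0.25 (SE of each). With the replicate number as a block, 5 of the 75 genes were higher (6.67%) and 11 were lower (14.7%) at an adjusted p under 0.05 (limma, Benjamini-Hochberg over 12824 genes). Of all tested genes, 4.71% were higher and 11.3% were lower (16.0% in all), so the shares among the 75 genes lay near the background. Without the block, limma called 0 of the 75 genes and 0 of all genes, while 15 of the 75 and 1230 of all genes had an unadjusted p under 0.05, and the smallest adjusted p was 0.366. Arrays of the same replicate number deviated together, so the blocked values are the ones given here. After quantile normalization, limma with the block called 6 of the 75 higher and 5 lower, against 5.27% and 8.13% of all genes.

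**Figure D1:**
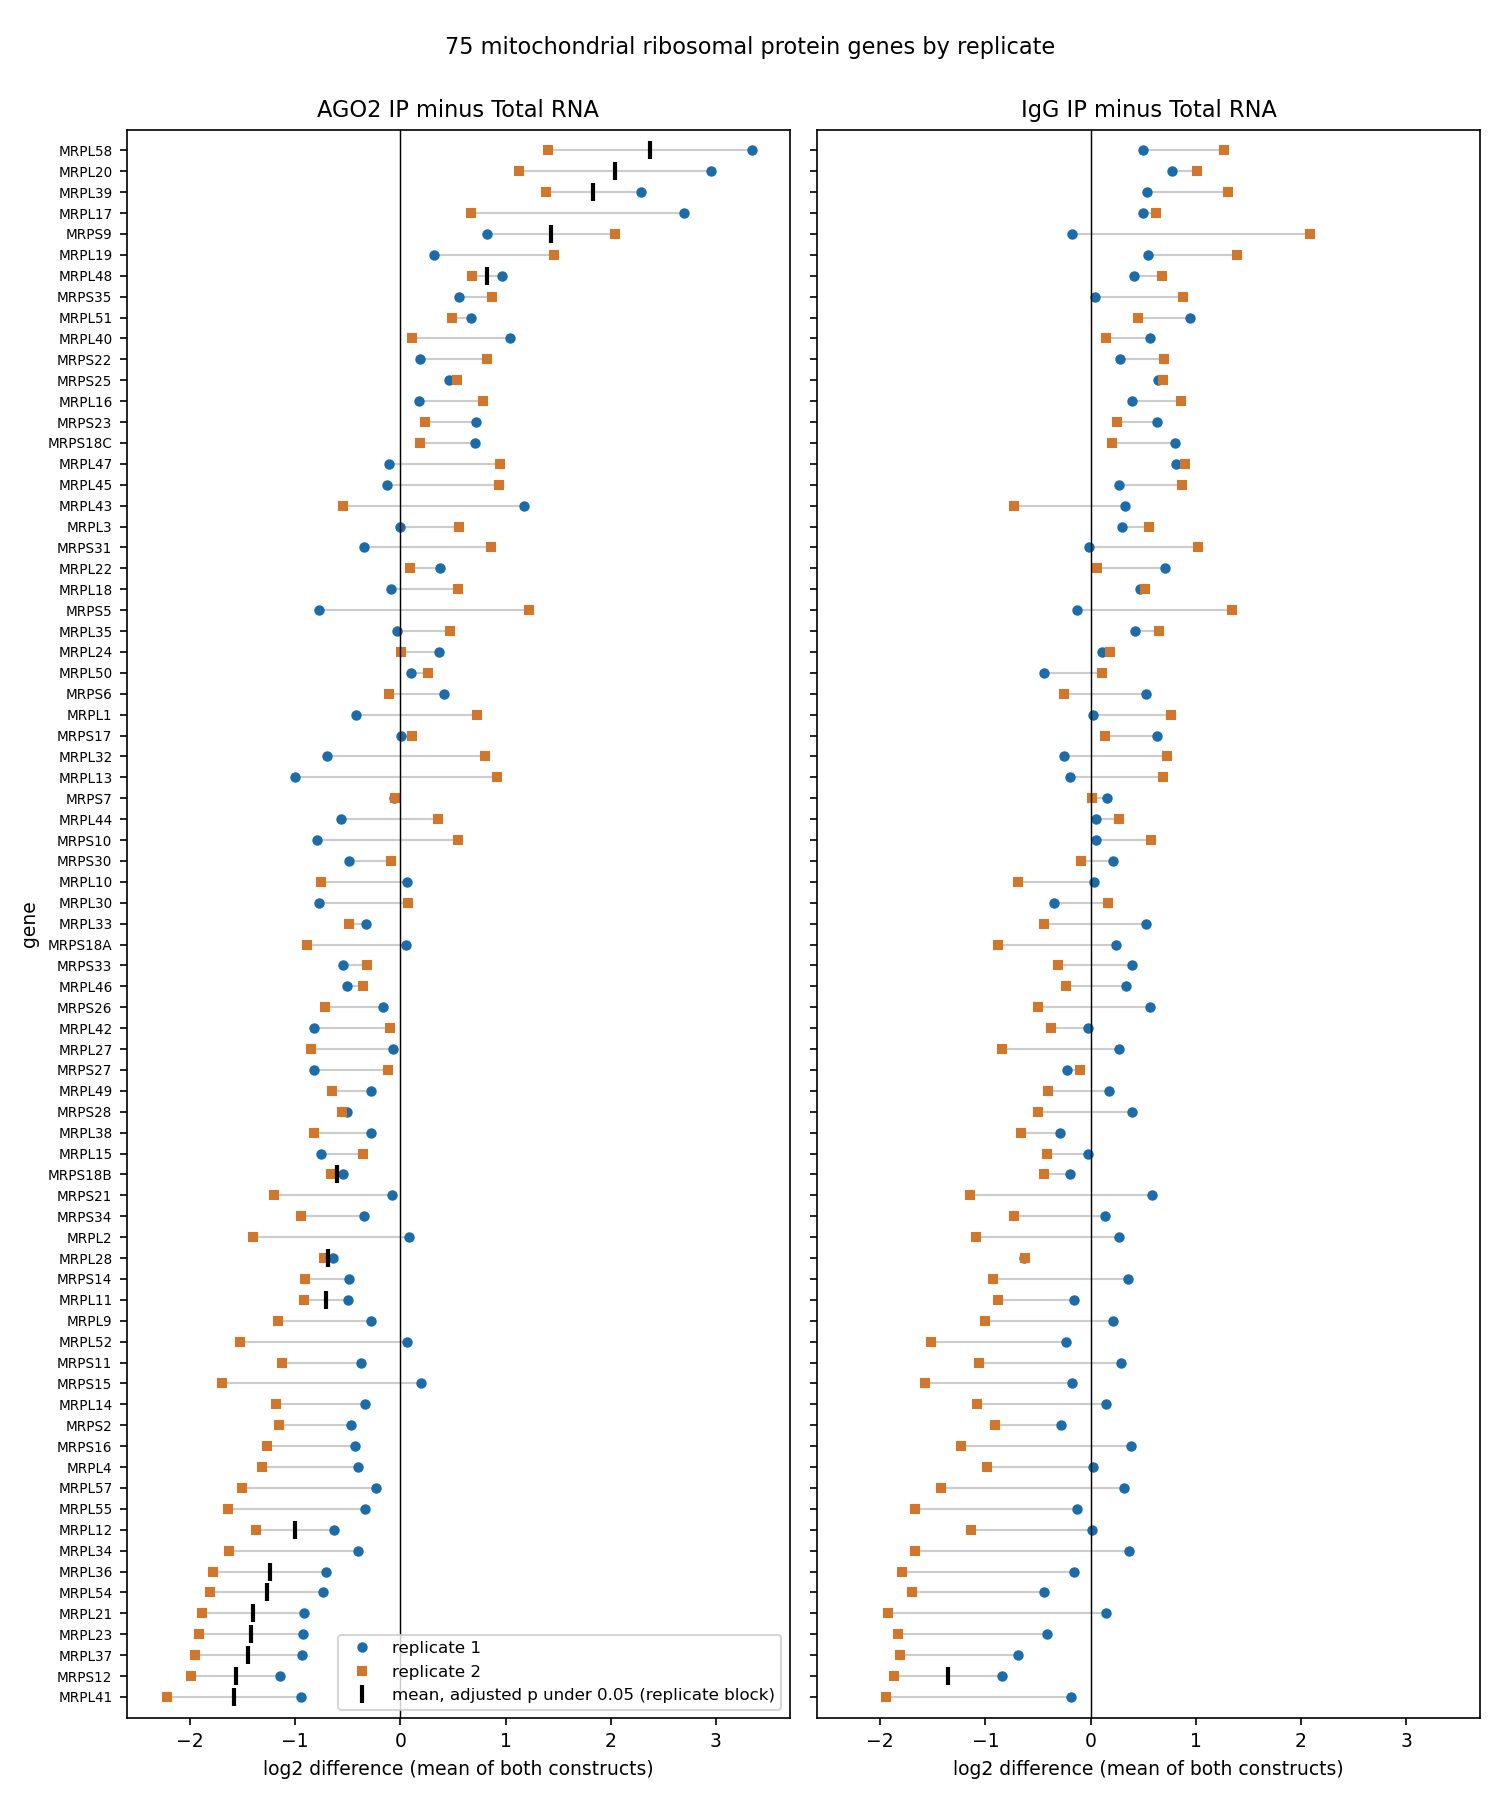
Log2 difference of the AGO2 IP (left) and the IgG IP (right) from Total RNA for each of the 75 genes, with a circle for replicate 1 and a square for replicate 2 (mean of both constructs) and a black bar at the mean where the adjusted p with the replicate block was under 0.05. MRPL58, MRPL20 and MRPL39 stand at the top of the left panel and MRPL37, MRPS12 and MRPL41 at the bottom, and 1 gene, MRPS12, carries a bar in the right panel.

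All 4 AGO2 IPs lay above all 4 Total RNA arrays for MRPL58. It read 11.80 and 11.77 in the miR-21 and control vector AGO2 IPs of replicate 1 and 11.66 and 9.44 in those of replicate 2, against 8.45 and 8.42 in Total RNA of replicate 1 and 9.18 and 9.12 in Total RNA of replicate 2. Its AGO2 IP mean was 11.17 ± 1.15 and its Total RNA mean 8.79 ± 0.41 (SD, n = 4 each), with an adjusted p of 0.0355 (limma with the replicate block). The difference was 3.35 in replicate 1 and 1.40 in replicate 2, and 3.05 without the arrays in doubt. It passed the threshold in 3 of the 12 fits that left out 1 array each, with differences between 1.58 and 3.17.

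MRPL20 encodes a large-subunit protein with a bacterial counterpart. It read 13.89 and 13.41 in the AGO2 IPs of replicate 1 and 13.07 and 12.12 in those of replicate 2, against 10.64 and 10.76 in Total RNA of replicate 1 and 11.46 and 11.47 in Total RNA of replicate 2. The groups did not overlap, and the difference was 2.04 ± 0.44 (SE; adjusted p = 0.0217, limma with the block). MRPL39, a large-subunit protein added in the mitochondrial lineage, read 11.87 and 11.85 in the AGO2 IPs of replicate 1 and 11.93 and 11.60 in those of replicate 2, against 9.48 and 9.66 in Total RNA of replicate 1 and 10.39 and 10.38 in Total RNA of replicate 2. The groups did not overlap, the 4 AGO2 IPs lay close together (mean 11.81 ± 0.15, SD), and the difference was 1.83 ± 0.33 (SE; adjusted p = 0.0157, limma with the block).

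MRPS9 is the homologue of a bacterial protein of the small subunit. It read 9.99 and 9.68 in the AGO2 IPs of replicate 1 and 11.81 and 12.12 in those of replicate 2, against 9.07 and 8.97 in Total RNA of replicate 1 and 9.86 and 9.99 in Total RNA of replicate 2. The fractions separated within each replicate but overlapped when the replicates were pooled, and the difference was 1.43 ± 0.42 (SE; adjusted p = 0.0469, limma with the block). MRPL48, another large-subunit protein without a bacterial counterpart, read 9.60 and 9.65 in the AGO2 IPs of replicate 1 and 9.85 and 9.91 in those of replicate 2, against 8.55 and 8.78 in Total RNA of replicate 1 and 9.09 and 9.31 in Total RNA of replicate 2. Its 4 AGO2 IPs were all above its 4 Total RNA arrays, by 0.82 ± 0.19 (SE; adjusted p = 0.0240, limma with the block). Without the arrays in doubt MRPS9 was at 1.25 and MRPL48 at 0.89.

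MRPL17, the homologue of a bacterial large-subunit protein, was singled out after its values were seen. It read 11.98 and 12.07 in the AGO2 IPs of replicate 1 and 12.29 and 9.67 in those of replicate 2, against 9.27 and 9.40 in Total RNA of replicate 1 and 10.28 and 10.33 in Total RNA of replicate 2. The control vector AGO2 IP of replicate 2, 1 of the arrays in doubt, lay below Total RNA of the same replicate while the other 3 lay far above theirs. The difference was 1.68 ± 0.63 (SE; adjusted p = 0.0994, limma with the block) over all arrays, and 2.40 without the arrays in doubt.

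The genes that were lower included MRPL41, a large-subunit protein of the mitochondrial lineage. It read 8.14 and 8.46 in the AGO2 IPs of replicate 1 and 8.18 and 8.64 in those of replicate 2, against 9.32 and 9.16 in Total RNA of replicate 1 and 10.50 and 10.74 in Total RNA of replicate 2. No AGO2 IP reached any Total RNA array, and the difference was −1.58 ± 0.35 (SE; adjusted p = 0.0223, limma with the block). MRPS12 read 8.71 and 8.52 in the AGO2 IPs of replicate 1 and 8.60 and 8.20 in those of replicate 2, against 9.75 and 9.77 in Total RNA of replicate 1 and 10.29 and 10.50 in Total RNA of replicate 2. It had the smallest adjusted p of the 75 genes, 0.0125 (limma with the block), and its AGO2 IP mean was 8.51 ± 0.22 against 10.07 ± 0.38 in Total RNA (SD, n = 4 each).

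MRPL37, which like MRPL41 has no bacterial counterpart, read 8.78 and 8.71 in the AGO2 IPs of replicate 1 and 8.06 and 7.64 in those of replicate 2, against 9.69 and 9.68 in Total RNA of replicate 1 and 9.81 and 9.79 in Total RNA of replicate 2. Its Total RNA arrays were nearly level, with a mean of 9.74 ± 0.07 (SD, n = 4), and the difference was −1.45 ± 0.27 (SE; adjusted p = 0.0162, limma with the block). MRPL23, which lines the exit of the nascent peptide tunnel in bacteria, read 8.60 and 8.91 in the AGO2 IPs of replicate 1 and 8.02 and 8.12 in those of replicate 2, against 9.62 and 9.75 in Total RNA of replicate 1 and 9.87 and 10.10 in Total RNA of replicate 2. The groups did not overlap, and the difference was −1.42 ± 0.29 (SE; adjusted p = 0.0197, limma with the block).

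**Figure D2:**
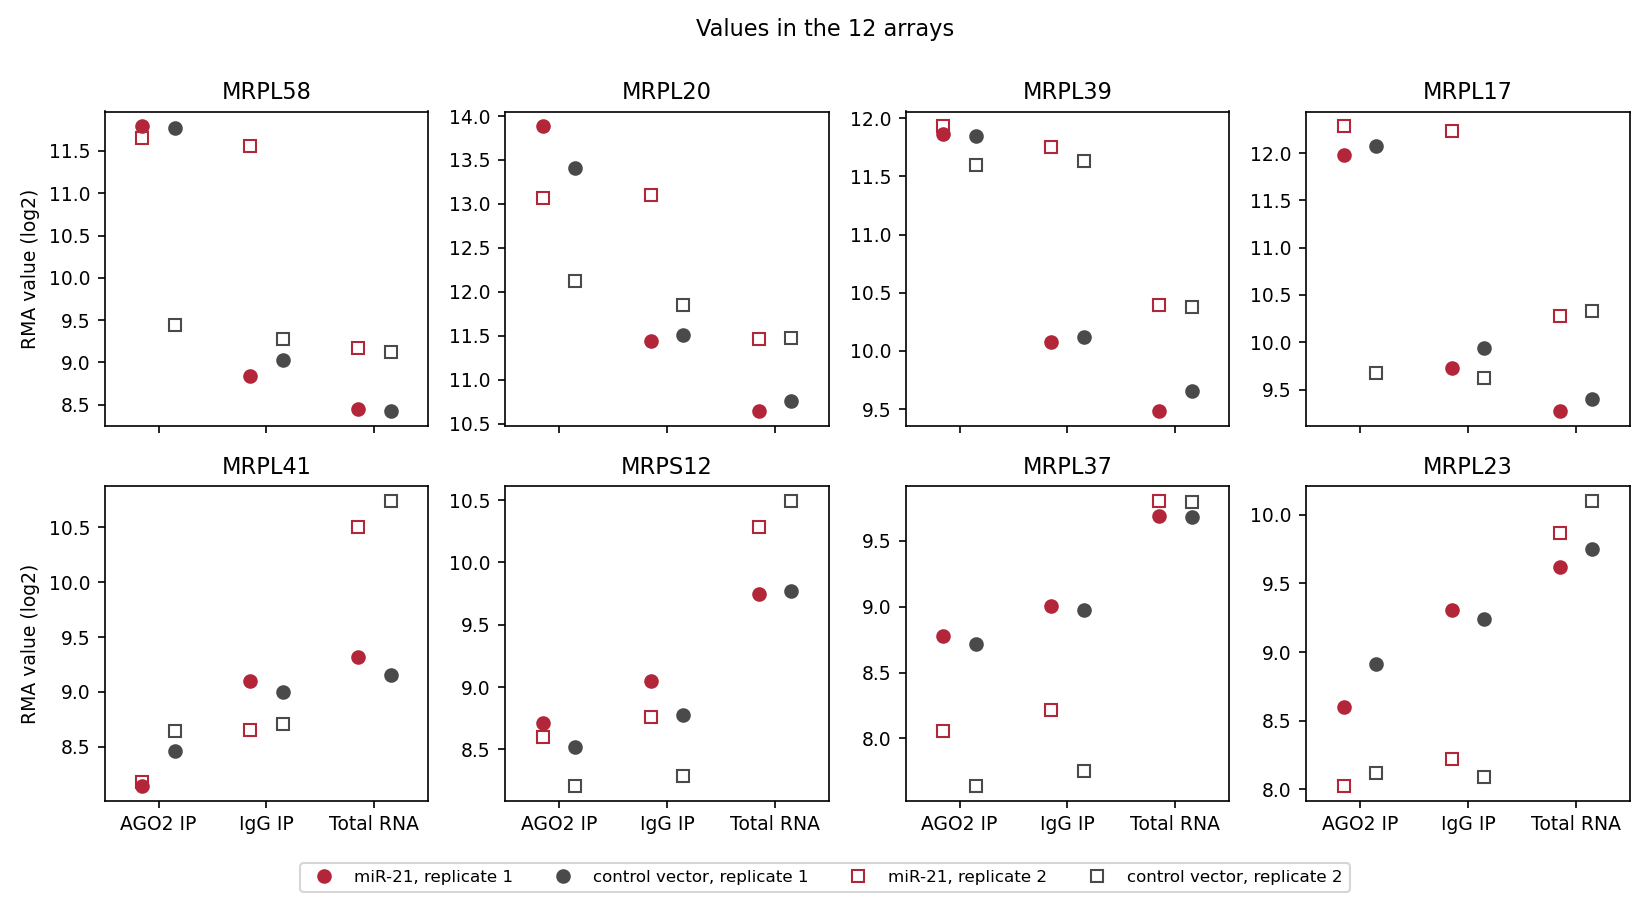
RMA values (log2) of 8 genes in the AGO2 IP, the IgG IP and Total RNA, with miR-21 in red, control vector in grey, filled circles for replicate 1 and open squares for replicate 2; each panel has its own axis, which does not start at 0. In MRPL58, MRPL20 and MRPL17 the red square of the IgG IP lies near that of the AGO2 IP, and in MRPL41, MRPS12, MRPL37 and MRPL23 every AGO2 IP value lies below every Total RNA value.

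The other lower genes differed by −1.40 (MRPL21), −1.27 (MRPL54), −1.24 (MRPL36), −1.0 (MRPL12), −0.71 (MRPL11), −0.68 (MRPL28) and −0.60 (MRPS18B), with adjusted p-values between 0.0258 and 0.0488 in limma with the block. MRPL12 and MRPL11 belong to the stalk region where translation factors bind. MRPL12 read 8.25 and 8.60 in the AGO2 IPs of replicate 1 and 7.70 and 7.88 in those of replicate 2, against 8.83 and 9.28 in Total RNA of replicate 1 and 8.84 and 9.48 in Total RNA of replicate 2. Its highest AGO2 IP value lay below its lowest Total RNA value.

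Several genes of known role did not pass the test. MRPL3, a core protein near the catalytic centre, differed by 0.27 (adjusted p = 0.359, limma with the block), and MRPL44, which carries an RNase III-like fold, by −0.10 (adjusted p = 0.824). MRPS16, homologous to a bacterial small-subunit protein, was at −0.85 (adjusted p = 0.120, limma with the block), and MRPS22, a small-subunit protein of the mitochondrial lineage, was at 0.50 (adjusted p = 0.119). MRPS30 was at −0.29 (adjusted p = 0.449, limma with the block). The 3 paralogues of the bacterial S18 protein did not run together. MRPS18B was the one that passed, at −0.60, while MRPS18A was at −0.42 (adjusted p = 0.323, limma with the block) and MRPS18C at 0.45 (adjusted p = 0.164).

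By symbol, 4 of 48 MRPL genes were higher and 9 were lower, and 1 of 27 MRPS genes was higher and 2 were lower. Of the 47 genes with a bacterial counterpart, 2 were higher and 8 were lower, and of the 28 without, 3 were higher and 3 were lower. The median difference over the 75 genes was −0.40, with 45 below 0, against −0.05 over all tested genes. It was −0.23 without the control vector AGO2 IP of replicate 1 (limma with the block). Cytosolic ribosomal protein genes had a median of −0.46, with 0 of 52 higher and 18 lower. At an unadjusted p under 0.05 limma with the block listed 29 of them. No share of all genes stands beside that count, so it is not read as a result about these genes. Nuclear-encoded oxidative phosphorylation genes had a median of −0.64, with 1 of 64 higher and 18 lower. In the same fit 4.71% of all tested genes were higher and 11.3% were lower. Differences among the lists were not tested.

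**Figure D3:**
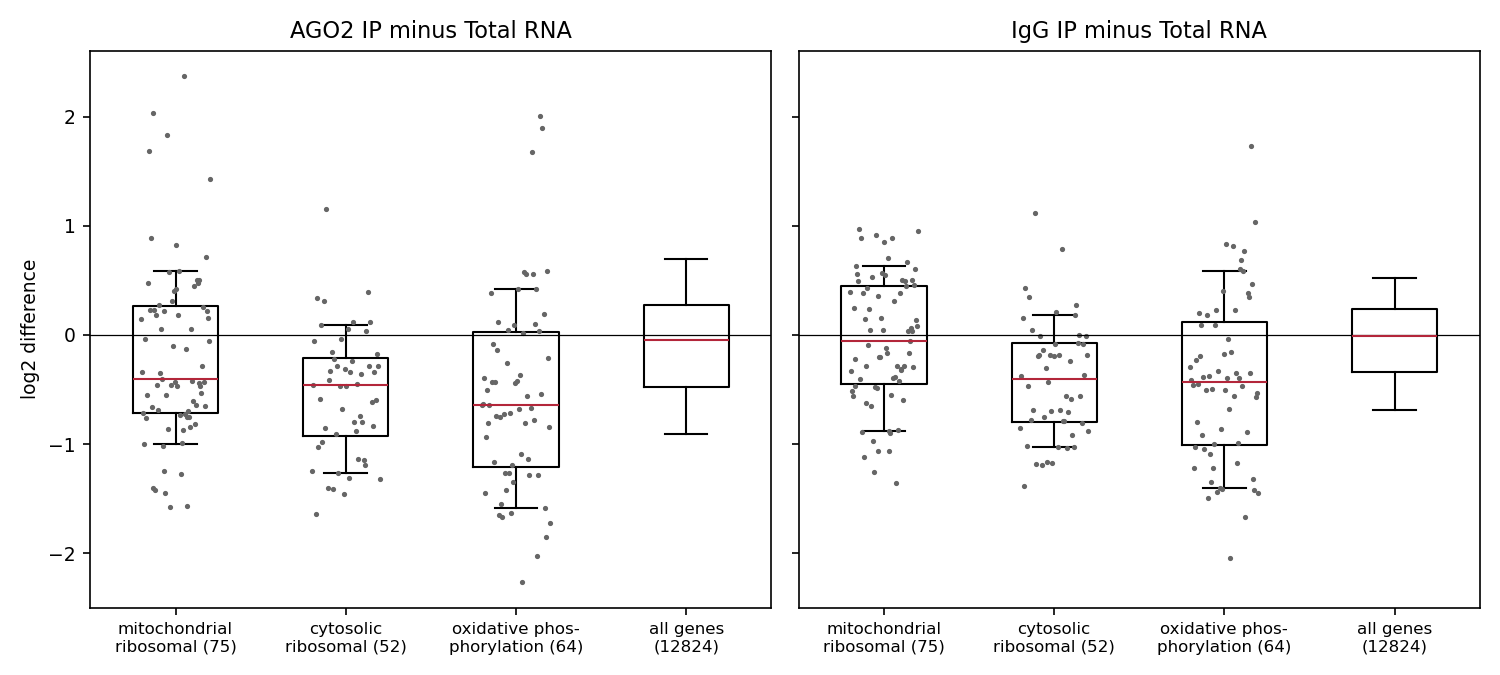
Log2 difference of the AGO2 IP (left) and the IgG IP (right) from Total RNA for 75 mitochondrial ribosomal, 52 cytosolic ribosomal and 64 oxidative phosphorylation genes and for all 12824 tested genes; boxes span the middle 2 quartiles with the median in red, 10% of the genes lie beyond each whisker, and points are single genes. The medians in the left panel are −0.40, −0.46, −0.64 and −0.05.

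Both replicates were also fitted alone, with fraction and construct as terms. In replicate 1, 12 of the 75 genes were higher and 17 were lower in the AGO2 IP than in Total RNA, against 13.0% and 23.3% of all genes (36.3% in all). In replicate 2, 15 were higher and 27 were lower, against 15.8% and 19.4% of all genes (35.2% in all). Higher in both were 5 genes, MRPL20, MRPL39, MRPL48, MRPS35 and MRPS9 (4.46% of all genes), and lower in both were 8, MRPL21, MRPL23, MRPL36, MRPL37, MRPL41, MRPL54, MRPS12 and MRPS18B (8.62% of all genes). MRPL13, MRPL32 and MRPS5 were lower in replicate 1 and higher in replicate 2, as were 2.72% of all genes.

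MRPS5, a small-subunit protein with a bacterial counterpart, read 7.89 and 8.23 in the AGO2 IPs of replicate 1 and 10.87 and 11.50 in those of replicate 2, against 8.90 and 8.77 in Total RNA of replicate 1 and 9.96 and 9.97 in Total RNA of replicate 2. The difference was −0.78 in replicate 1 (adjusted p = 0.0231, limma within the replicate) and 1.22 in replicate 2 (adjusted p = 0.00791). MRPL13, the homologue of a bacterial large-subunit protein, went the same way, with −1.0 in replicate 1 and 0.92 in replicate 2. Over the 75 genes, the differences of the replicates had a Pearson's r of 0.503 and a Spearman's rho of 0.451 (no test; the replicates share no array, and the genes share the arrays of each).

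The calls depended on single arrays, among the 75 genes and among all tested genes. With the block, no member was called when the miR-21 AGO2 IP of replicate 1, the miR-21 AGO2 IP of replicate 2, the miR-21 Total RNA of replicate 2 or the control vector Total RNA of replicate 2 was left out, when limma listed 25, 26, 21 and 22 of the 75 genes at an unadjusted p under 0.05 and called 68, 2, 53 and 57 of all genes. The count was 9 without the control vector AGO2 IP of replicate 1 and 10 without the miR-21 Total RNA of replicate 1, where 1029 and 1197 of all 12824 genes were called. MRPS12, MRPL37, MRPL23, MRPL41, MRPL54 and MRPL39 passed in 8 of the 12 fits that each left out 1 array, and MRPL11, MRPL28 and MRPS18B passed in 1. Without the arrays in doubt, as a description, MRPL20 was at 2.43 and MRPL39 at 2.10. There MRPL41 was at −1.47, MRPS12 at −1.45, MRPL23 at −1.29 and MRPL37 at −1.28.

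Among the proteins that work with the mitochondrial ribosome, the same comparison gave called genes of both signs. It called 4.71% of all tested genes higher and 11.3% lower with the block. Of 25 assembly factors, 2 were higher and 4 were lower with the block: NGRN, needed for the large ribosomal RNA, was at 0.88 and YBEY, an RNA endonuclease, at 0.85, while C1QBP was at −1.09, the GTPases NOA1 and MTG1 at −0.94 and −0.90, and the pseudouridine synthase TRUB2 at −0.84. Of 17 factors of mitochondrial translation, 3 were higher and 2 were lower. The initiation factor MTIF3 was at 1.81, PTCD2 at 0.78 and the formyltransferase MTFMT at 0.75, against −1.23 for the RNA-binding protein LRPPRC and −1.06 for the elongation factor TUFM. Of 8 genes that copy or transcribe mitochondrial DNA, 1 was lower, the DNA polymerase POLG at −1.47, and none of the 4 other mitoribosomal genes passed (limma with the block, 0 at an unadjusted p under 0.05).

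For the IgG IP against Total RNA, limma with the block called 1 mitochondrial ribosomal gene. MRPS12 read 9.05 and 8.77 in the miR-21 and control vector IgG IPs of replicate 1 and 8.76 and 8.29 in those of replicate 2, against 9.75 and 9.77 in Total RNA of replicate 1 and 10.29 and 10.50 in Total RNA of replicate 2. All IgG IPs lay below all Total RNA arrays, with a difference of −1.36 ± 0.25 (SE; adjusted p = 0.0313, limma with the block). Thus 0 of 75 genes were higher and 1 was lower, against 0.296% and 1.62% of all genes (1.92% in all), and 25 of the 75 had an unadjusted p under 0.05. Without the block limma called 0, with 5 at an unadjusted p under 0.05. No share of all genes stands beside these unadjusted counts, so they are not read as a result about the 75 genes. MRPS12 passed in 3 of the 12 fits that left out 1 array, and without the arrays in doubt it was at −1.24. That value, given without those arrays, is a description with no test.

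The largest differences beyond MRPS12 among genes whose arrays separated within each replicate did not pass the test. MRPL19 was at 0.97, MRPL39 at 0.92, MRPL20 and MRPL58 at 0.89 and MRPL47 at 0.85, with adjusted p-values between 0.116 and 0.476 in limma with the block. On the other side, MRPL37 was at −1.25 (adjusted p = 0.0549, limma with the block), MRPL23 at −1.12, and MRPL54 and MRPL41 at −1.07. Both comparisons use the same Total RNA arrays, so they are given side by side. The median of the 75 genes was −0.06, against −0.01 for all genes and −0.40 for cytosolic ribosomal protein genes. Among the assembly factors, YBEY was higher, by 1.08 (adjusted p = 0.0272, limma with the block).

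The replicates differed in this comparison. Within replicate 1, limma called 0 of the 75 genes, against 0.772% of all genes higher and 2.99% lower (3.77% in all), and the median was 0.21. At an unadjusted p under 0.05 limma listed 24 of the 75. Again no share of all genes stands beside that count, so it is not read as a result about the 75 genes. In replicate 2, 13 genes were higher and 23 were lower, against 14.7% and 16.6% of all genes (31.3% in all), with a median of −0.31. The largest differences on either side in replicate 2 were 2.09 for MRPS9 and −1.94 for MRPL41, where replicate 1 had −0.17 and −0.19.

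Between the IPs, no mitochondrial ribosomal gene passed. MRPL58 averaged 11.17 ± 1.15 in the AGO2 IP and 9.68 ± 1.27 in the IgG IP (SD, n = 4 each), a difference of 1.49 ± 0.62 (SE; adjusted p = 0.819, limma with the block). With the block, limma called 0 of the 75 and 0 of all genes, and 4 and 663 had an unadjusted p under 0.05. Of the 75 genes, 59 were below 0, and the median was −0.24, against −0.08 over all tested genes and −0.15 for cytosolic ribosomal protein genes. The median for oxidative phosphorylation genes was also −0.24. In none of the 75 did the AGO2 IPs lie above the IgG IPs in both replicates (1.23% of all genes), and in 7 they lay below in both (3.90% of all genes). The largest of these were MRPL41 at −0.51, MRPS26 at −0.48, MRPS11 at −0.36, MRPS34 at −0.35 and MRPL49 at −0.35. Counts over both replicates use the arrays in doubt, in which the IPs of replicate 2 paired by construct, so they are limited by those arrays.

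The replicates again stood apart. Within replicate 1, 6 genes were higher in the AGO2 IP and 16 were lower, against 12.5% and 11.5% of all genes (24.0% in all; limma with Benjamini-Hochberg adjustment). MRPL58 led with 2.84, followed by MRPL17 with 2.20, MRPL20 with 2.18, MRPL39 with 1.76, MRPS9 with 0.99 and MRPL43 with 0.85. The lowest were MRPL21 at −1.06, MRPS33 at −0.94, MRPL47 at −0.92 and MRPS28 at −0.90. Within replicate 2 limma called 0 of the 75 genes, and 0 had an unadjusted p under 0.05. There the differences lay between −0.33 and 0.28.

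In replicate 1, MRPL17 read 11.98 and 12.07 in the miR-21 and control vector AGO2 IPs, against 9.72 and 9.94 in the IgG IPs. In replicate 2 it read 12.29 and 9.67 in the miR-21 and control vector AGO2 IPs, against 12.24 and 9.62 in the IgG IPs. The arrays thus paired by antibody in replicate 1 and by construct in replicate 2. MRPL39 differed little in replicate 2 by either, with 11.93 and 11.60 in the miR-21 and control vector AGO2 IPs, against 11.75 and 11.63 in the IgG IPs. Without the arrays in doubt, the differences were 2.75 for MRPL58, 2.35 for MRPL17, 1.89 for MRPL20 and 1.40 for MRPL39, against 1.49, 1.12, 1.15 and 0.92 with all arrays. The arrays in doubt were chosen on this very difference, so these values are a description and no p is given. A count of genes called without those arrays is not a test either. Over all arrays the adjusted p of the 4 genes was 0.819 (limma with the block).

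**Figure D4:**
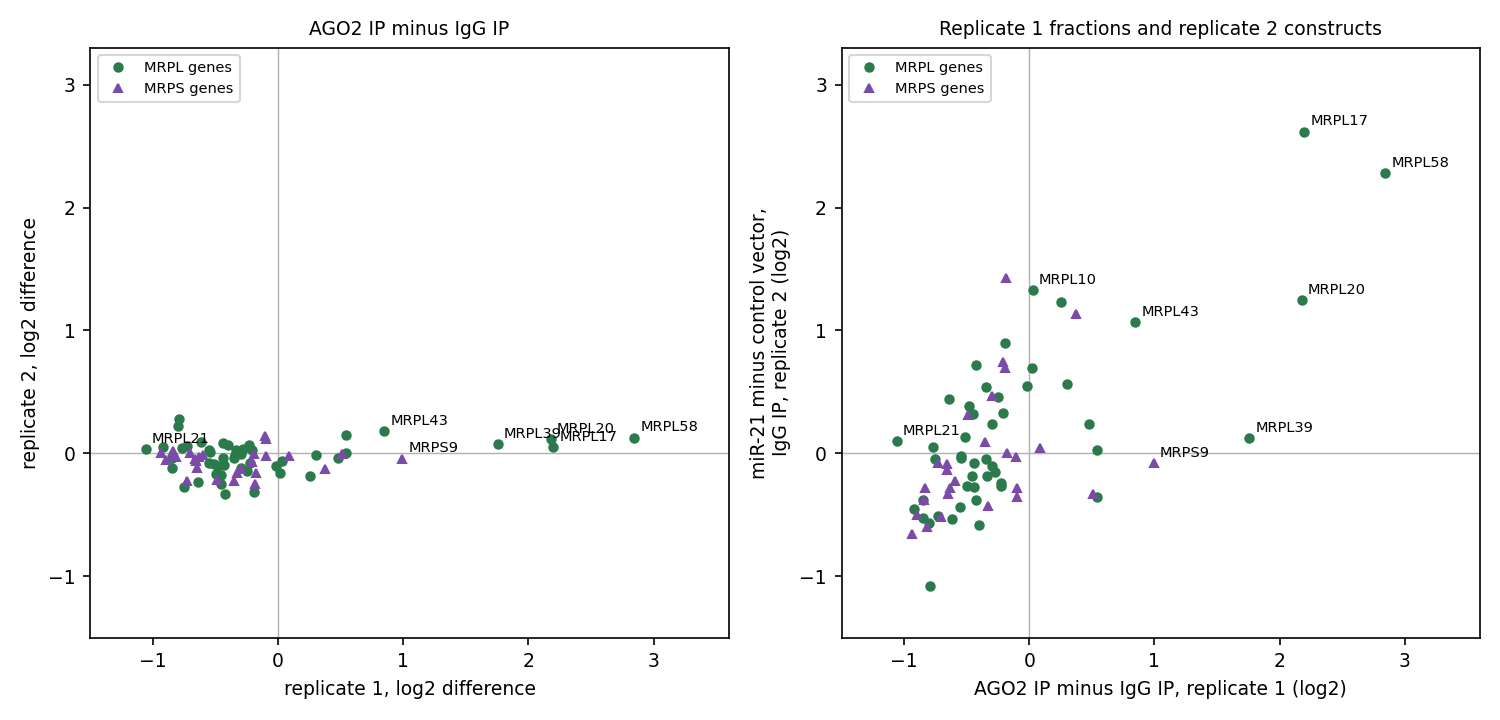
Left, AGO2 IP minus IgG IP (log2, mean of both constructs) in replicate 1 on the horizontal and in replicate 2 on the vertical axis for the 75 genes; right, the same replicate 1 difference against miR-21 minus control vector in the IgG IP of replicate 2, with circles for MRPL and triangles for MRPS genes. Replicate 2 stays between −0.33 and 0.28 in the left panel while MRPL58 reaches 2.84 in replicate 1, and in the right panel MRPL58, MRPL17 and MRPL20 are high on both axes.

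Between miR-21 and the control vector, no mitochondrial ribosomal gene passed the threshold in any fraction. In Total RNA, where the arrays in doubt play no part, limma with the block called 0 of the 75 and 0 of all genes, and 0 and 3 had an unadjusted p under 0.05. The genes leaned one way: 58 of 75 were below 0, with a median of −0.08 against 0.02 over all tested genes, and the values were small beside the spread. All of these genes were read from the same Total RNA arrays, so counts of their signs are a description, not independent observations. In both replicates 39 genes were below 0 and 9 above, against 21.7% and 29.1% of all tested genes. Of cytosolic ribosomal protein genes 28.8% were below 0 in both replicates, and of oxidative phosphorylation genes 48.4%.

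MRPL12 stood farthest out. It read 8.83 and 8.84 in the miR-21 Total RNA of replicates 1 and 2, against 9.28 and 9.48 in the control vector Total RNA. Both miR-21 arrays lay below both control vector arrays, with a difference of −0.54 ± 0.36 (SE; unadjusted p = 0.171, limma with the block). MRPL34 was at −0.38 and MRPS34 at −0.27, and on the other side MRPS30 was at 0.22, MRPS35 at 0.11 and MRPL32 at 0.07.

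**Figure D5:**
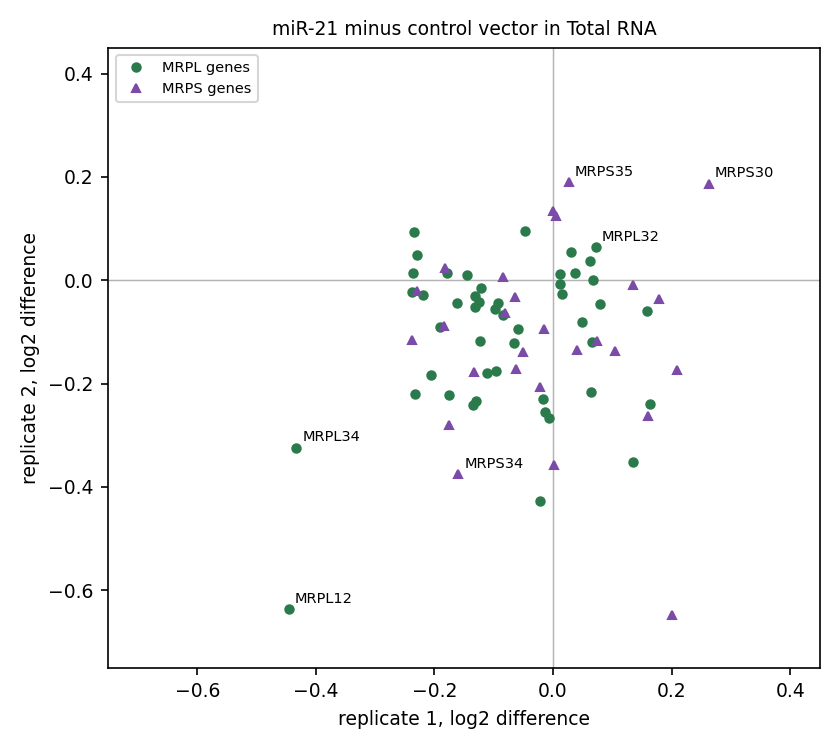
miR-21 minus control vector in Total RNA (log2) for the 75 genes, replicate 1 on the horizontal and replicate 2 on the vertical axis, with circles for MRPL and triangles for MRPS genes. The lower left, below 0 in both replicates, holds 39 genes, among them MRPL12 and MRPL34, and the upper right holds 9.

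In the AGO2 IP, limma with the block called 0 of the 75 and 0 of all genes, with 2 and 353 at an unadjusted p under 0.05, and 24 genes were below 0 in both replicates (16.7% of all genes) and 20 above (29.5% of all genes). MRPL58 was at 1.12, MRPL10, a stalk protein, at 1.04 and MRPL20 at 0.72, while MRPS5 was at −0.48, MRPS21 at −0.46 and MRPL33 at −0.44. MRPL58 had 0.03 in replicate 1 and 2.21 in replicate 2, and without the arrays in doubt it was at −0.23 and MRPL20 at −0.06. MRPL10 read 8.71 and 9.43 in the miR-21 AGO2 IPs of replicates 1 and 2, against 8.05 and 8.03 in the control vector AGO2 IPs. Its difference was 0.66 in replicate 1 and 1.41 in replicate 2, where the IgG IPs read 9.46 with miR-21, against 8.13 with the control vector. Without the arrays in doubt MRPL10 was at 0.68, MRPS5 at 0.15, MRPS21 at −0.78 and MRPL33 at −0.29.

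In the IgG IP, limma with the block called 0 of the 75 and 0 of all genes, with 0 and 123 at an unadjusted p under 0.05, and 21 genes were below 0 in both replicates (23.3% of all genes) and 19 above (30.4% of all genes). MRPS2 was at 0.74, MRPL43 at 0.64 and MRPL2 at 0.49, against −0.43 for MRPL13, −0.41 for MRPS28 and −0.38 for MRPL30. Most of the first 3 values came from replicate 2, which holds an IgG IP in doubt: MRPS2 had 0.06 in replicate 1 and 1.43 in replicate 2, MRPL43 0.22 and 1.07, and MRPL2 0.09 and 0.90. Without the arrays in doubt they were at 0.48, 0.64 and 0.60, and MRPL13 was at −0.48, MRPS28 at −0.063 and MRPL30 at −0.47.

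The test of whether the AGO2 minus IgG difference itself differed between constructs called 0 of the 75 and 0 of all genes (limma with the block), with 0 and 39 at an unadjusted p under 0.05. MRPS30 was at 0.77, MRPL44 at 0.58 and MRPL42 at 0.54, and MRPL12 and MRPL4 at −0.54 and MRPL49 at −0.46. Without the arrays in doubt these were 1.01 for MRPS30, 0.92 for MRPL44, 0.43 for MRPL42, −0.96 for MRPL12, −1.17 for MRPL4 and −0.72 for MRPL49.

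The median profile of the 75 genes over the 12 arrays, after each replicate's mean was taken off, was most like those of SPAG7 (Pearson's r = 0.966), PPIH (0.966), MYO5B (0.958), THAP11 (0.952) and GLRX5 (0.951), as a description over 12 arrays. Of the 75 genes, 37 had further probe sets. Of 53 of these at or above the filter, 39 had the same sign as the one used in the AGO2 IP against Total RNA and 14 the opposite sign. For 44 of the 75 genes the probe set used has an Affymetrix name for sets that can match more than 1 transcript.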

How the data were processed

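The deposited table holds log2 values from RMA, per the submitters' processing notes. No source used here gives its version, its settings or whether the 12 arrays were normalized together. Of 54675 probe sets, 62 of them controls, the platform annotation gave 41091 non-control sets 1 gene symbol, gave 1801 several and did not list 11777. Those with 1 symbol gave 19775 genes, by the highest mean, and 12824 at or above 4.02 were tested. The members, the lists and the arrays in doubt were chosen with earlier results of these data known. Tests used R 4.3.3 and limma 3.58.1, with a mean for each of 6 groups and no block in the design as fixed (6 residual degrees of freedom), and the replicate number as a block where stated (5). Replicate numbers come from the labels, and after group means were taken off, arrays with the same number correlated in all 15 pairs of groups (r of 0.468 to 0.873), over the 0.1 set for pairing. A call is a Benjamini-Hochberg adjusted p under 0.05. Named genes are up to 10 called per direction or, failing 5, the largest whose arrays separated within each replicate, plus 11 genes of known role. For construct contrasts they are the 3 largest per direction with 1 sign in both replicates. MRPL17, and in the AGO2 against IgG comparison MRPL58, MRPL20 and MRPL39, were named after their values were seen, as were genes given for a single replicate. Alternatives were filter, scaling, probe set, arrays left out and single replicates. The fits were tested on simulated data. Figures used Python 3.11.15, pandas 2.3.3 and matplotlib 3.10.9.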

Additional observations from a re-analysis of the deposited data

How the results depend on the processing

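With the replicate block, the calls among the 75 genes in the AGO2 IP against Total RNA were 16 (16.0% of all genes called), against 0 without it. They were 13 without the filter on low values (9.39% of all genes) and 15 with median centring (15.5%). They were 11 with quantile normalization (13.4%) and 12 with the mean of a gene's probe sets (13.4%). They were 29 within replicate 1 (36.3%) and 42 within replicate 2 (35.2%). Leaving out 1 array at a time gave 0 to 15 with the block, and 0 without it; the counts above 0 were 9, 10, 12, 13, 14 and 15. For the IgG IP against Total RNA, the block gave 1 (1.92% of all genes), the block without the filter 1 (1.34%), with centring 2 (1.88%) and with quantile normalization 1 (1.89%), replicate 2 alone gave 36 (31.3%), and leaving out 1 array with the block gave 0 to 3. For the AGO2 IP against the IgG IP there were 4 without the arrays in doubt (7.42% of all genes), a count conditioned on the choice of those arrays, and 22 within replicate 1 (24.0%). The count without the arrays in doubt is not read as a result, because those arrays were chosen on the AGO2 and IgG values. When 1 array was left out, the number of all genes called also moved. The counts from those fits are thus not read as changes particular to the 75 genes. No construct or interaction result gained or lost a call in any of the alternatives run, the replicate block included.

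Named values that changed sign were these, and the cause was not tested. With the mean of a gene's probe sets, the IgG IP against Total RNA was at −0.27 for MRPL19 and −0.17 for MRPL39. That mean also takes in probe sets below the filter. In this comparison further probe sets of MRPL19 were at 0.33 and, below the filter (3.52 over the arrays), at −2.12. A further probe set of MRPL39, below the filter (3.19), was at −1.26. The AGO2 IP against Total RNA was at 0.0091 for MRPL44 with the mean of its probe sets. These means gave the same differences with or without the block. Within replicate 1 the AGO2 IP against Total RNA was at −0.0055 for MRPL3 and 0.050 for MRPS18A, and within replicate 2 at 0.36 for MRPL44. Leaving out 1 array, without the block, gave −0.12 to 0.67 for MRPL3, −0.56 to 0.35 for MRPL44 and −0.68 to 0.10 for MRPS30. With the block, MRPL44 was at 0.036 without the control vector Total RNA of replicate 1 and at 0.17 without the control vector AGO2 IP of replicate 1.

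For miR-21 against control vector in the AGO2 IP, the values without the arrays in doubt were −0.23 for MRPL58, −0.063 for MRPL20 and 0.15 for MRPS5. Without the control vector AGO2 IP of replicate 2 alone, with the block, they were −0.46, −0.20 and 0.11. Leaving out 1 array without the block sets an array of 1 replicate against both replicates of the other construct. The difference in level between the replicates thus enters the values. This gave −0.039 to 2.29 for MRPL58 and −2.12 to 1.15 for MRPS5. In the IgG IP it gave −1.30 to 0.45 for MRPL13 and −0.97 to 0.21 for MRPL30. In Total RNA it gave −0.12 to 0.57 for MRPS30, −0.65 to 0.86 for MRPS35, −0.73 to 0.86 for MRPL32 and −0.94 to 0.18 for MRPL34. With the block, leaving out the miR-21 Total RNA of replicate 1 gave −0.072 for MRPS35, −0.43 for MRPL32 and 0.30 for MRPL34, and leaving out the control vector Total RNA of replicate 2 gave −0.17, −0.43 and 0.24 for these genes and 0.091 for MRPS34. For the difference between constructs in AGO2 minus IgG, leaving out 1 array without the block gave −0.0029 to 1.55 for MRPS30, −0.33 to 1.49 for MRPL44, −0.37 to 1.45 for MRPL42, −1.14 to 0.062 for MRPL12 and −1.57 to 0.50 for MRPL4. With the block MRPL42 was at −0.0096 without the control vector AGO2 IP of replicate 1 and at −0.10 without the miR-21 IgG IP of replicate 2.

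With 2 arrays a group, a fit that leaves out 1 array assumes that the lone array varies like the other groups. Without the block, every range from such fits also holds the difference in level between the replicates. The number of arrays limits every value.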
